A study of Oryctolagus cuniculus with 8 samples.

Results

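Transcripts of 6 regulators of cartilage and bone formation, SOX9, SOX5, SOX6, SOX11, RUNX1 and RUNX2, were compared between stromal cells grown from the fat pad under the kneecap, the infrapatellar fat pad (IPFSCs), and stromal cells of inguinal subcutaneous fat (ScASCs). The genes were chosen by symbol, 4 of the SOX family and 2 of the RUNX family, from the 20586 genes of the deposited table. The rule named 10 symbols, and SOX4, SOX8, SOX12 and RUNX3 were not analysed here. Both depots came from the same 4 male New Zealand white rabbits, which were 4 months old, and neither a treatment nor a genetic change is named for any animal. Collagenase digests of the whole tissue were grown in serum-containing medium, and RNA was taken at passage 1, before any differentiation medium was given. RNA-seq was done on 1 library per cell type and rabbit (4 IPFSC and 4 ScASC libraries), and since these are bulk cultures, fewer cells of a type and less RNA per cell cannot be told apart.

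SOX proteins bind the minor groove of DNA through an HMG box and bend it, and they work with partners that differ between cell types. SOX9 is required for mesenchymal cells to become chondrocytes and switches on the genes of type II collagen and aggrecan, while SOX5 and SOX6, a closely related pair that lacks an activation domain of its own, help SOX9 on the same enhancers. SOX11 belongs with SOX4 and SOX12 to the SOXC group, which keeps skeletal progenitors and the forming joint in an undifferentiated, growing state in mice. RUNX proteins bind DNA through a Runt domain together with CBFB. RUNX2 is needed for osteoblasts and for hypertrophy of growth plate chondrocytes, and RUNX1 is best known for blood cell formation but is also expressed in skeletal progenitors.

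Levels are RPKM, which scale the reads of a gene to the length of its model and to the mapped reads of the library. The steps between the RPKM of low genes gave back the whole number of reads behind 99.97% of the 13877 genes that were above 0 in at least 5 libraries (tolerance 0.005 reads). The reads recovered in this way summed to between 15477788 and 16546574 in the IPFSC libraries and between 14015013 and 17691916 in the ScASC libraries. The main test was limma's moderated test on log2(RPKM + 1) over the 11294 genes whose mean exceeded 1 RPKM in IPFSCs, ScASCs or both, with Benjamini-Hochberg adjustment over all of them and a call at an adjusted p under 0.05. Fold changes are IPFSCs over ScASCs, and on this scale the change of a weakly expressed gene comes out too small. Libraries that share a number were treated as a pair from 1 rabbit, and a fit with the rabbit as a block is given where it changed a call. No source used here states which libraries share a rabbit, so such values rest on the numbers.

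SOX9 (ENSOCUG00000011639) lay higher in every IPFSC library than in any ScASC library, as did 6.07% of all tested genes, but the difference missed the threshold. Its level was 18.8, 15.5, 22.7 and 15.6 RPKM in IPFSC replicates 1 to 4, against 13.9, 7.65, 12.1 and 9.62 RPKM in ScASC replicates 1 to 4. The lowest IPFSC library and the highest ScASC library, 15.5 and 13.9 RPKM, were close to each other. The means were 18.1 ± 3.39 RPKM in IPFSCs and 10.8 ± 2.76 RPKM in ScASCs (SD, n = 4 each), a ratio of 1.68. The log2 fold change was 0.71 (standard error 0.19, 95% confidence interval 0.28 to 1.14, adjusted p = 0.0767 in limma). Within the rabbits, IPFSCs were higher in 4 of 4 pairs, by 0.41 to 0.93 on the log2 scale, and with the rabbit as a block the adjusted p was 0.0138 in limma. Without ScASC replicate 1, whose SOX9 level was the highest of its group, the log2 fold change was 0.83 with an adjusted p of 0.0448 in limma. Over its 20 alternatives the adjusted p of SOX9 lay between 0.0131 and 0.198. The level rested on 545 to 854 reads per IPFSC library and 251 to 554 reads per ScASC library. Of SOX9, PPARG and RUNX2, the paper reports by qPCR before induction only SOX9 as significantly higher in IPFSCs. From its RNA-seq analysis, the paper describes SOX5, SOX6, SOX9 and SOX11 as preferentially expressed in IPFSCs.

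SOX5 (ENSOCUG00000011479), the partner of SOX6 in cartilage, was several-fold higher in IPFSCs and passed the test. It was measured at 1.76, 1.32, 5.55 and 3.54 RPKM in IPFSC replicates 1 to 4, against 0.126, 0.210, 0.648 and 0.605 RPKM in ScASC replicates 1 to 4. The groups did not overlap, and the rabbits of number 3 and 4 had the highest SOX5 in either cell type. The means were 3.04 ± 1.93 RPKM in IPFSCs and 0.397 ± 0.268 RPKM in ScASCs (SD, n = 4 each), a ratio of 7.66. In limma the log2 fold change was 1.43 (standard error 0.32, 95% confidence interval 0.69 to 2.17, adjusted p = 0.0419). The within-group SD of SOX5, 0.522 on the log2(RPKM + 1) scale, was larger than that of 91.8% of the tested genes and of 85.8% of the 739 genes of like level. The call of SOX5 was lost when any library but IPFSC replicate 2 was left out, with an adjusted p of 0.0616 to 0.120 in these 7 fits, and it was also lost with no filter on low RPKM (adjusted p = 0.0578 in limma) and in the voom fit on recovered reads described for SOX6.

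SOX6 (ENSOCUG00000012557) was the least abundant of the 6 genes in IPFSCs and stayed under a mean RPKM of 1 in both cell types, so it was not in the main test. IPFSC replicates 1 to 4 had 0.665, 0.618, 0.786 and 0.384 RPKM, against 0.0165, 0.0802, 0.0332 and 0.145 RPKM in ScASC replicates 1 to 4. The same values as reads were 37, 33, 45 and 21 in IPFSC replicates 1 to 4 and 1, 4, 2 and 8 in ScASC replicates 1 to 4, so every IPFSC library held more SOX6 reads than any ScASC library. The summed reads were 136 in IPFSCs and 15 in ScASCs, a ratio of 8.99 after scaling to the reads of each group (95% exact interval 5.26 to 16.5, which covers counting error only). An exact permutation test on log2(RPKM + 1) gave a two-sided p of 0.0286, the smallest that 4 libraries against 4 allow. Any gene without overlap between the groups gets this p, so it adds nothing to the values above. Among all genes in the main test, 11.8% had no overlap, in either direction. With no filter on low RPKM, the fold change of SOX6 was 0.59 on the log2 scale (adjusted p = 0.00916 in limma). In limma's voom fit on the recovered reads, which was added after the data were seen and takes genes with 10 or more reads in at least 4 libraries, the log2 fold change was 3.29 (standard error 0.57, adjusted p = 0.0151). That fold depends on the small offset added to ScASC libraries with 1 to 8 reads.

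**Figure D1:**
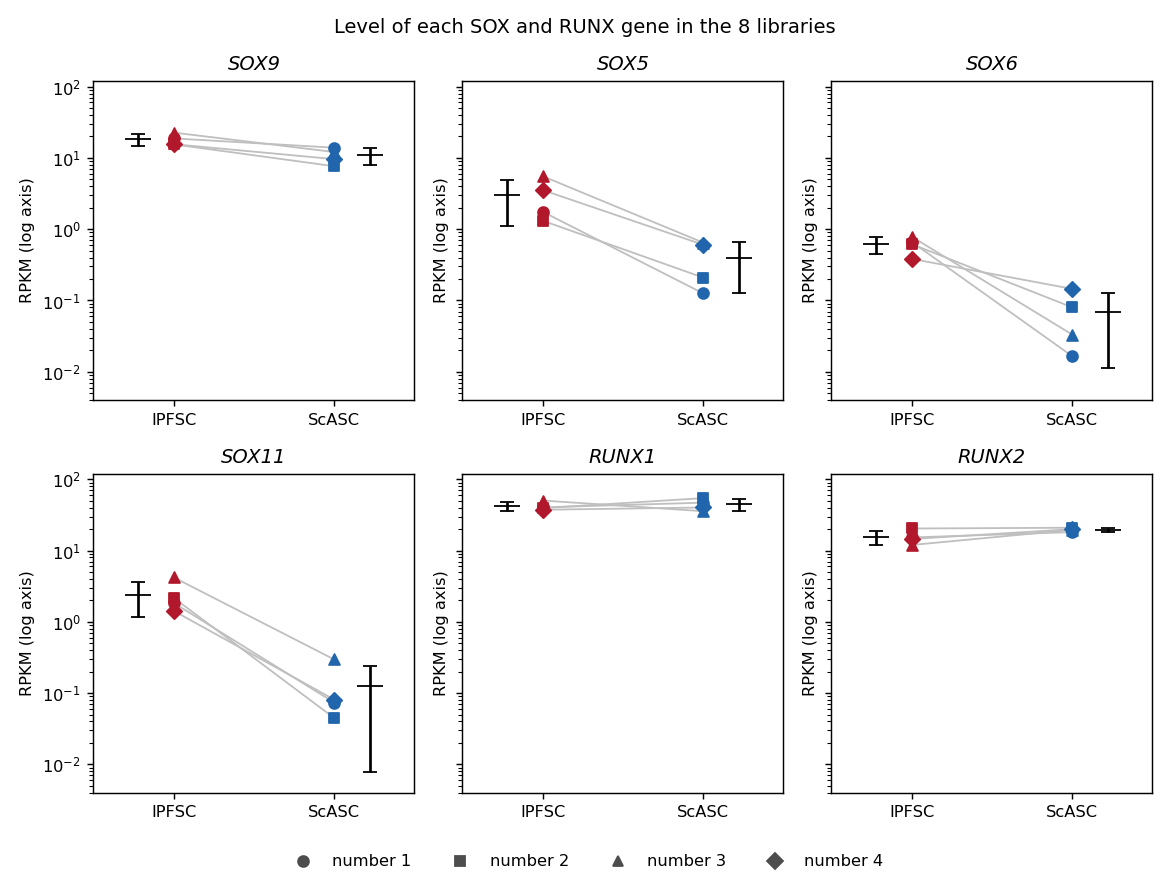
RPKM of each gene in the 8 libraries on a shared log axis, with IPFSCs left of ScASCs, a symbol for each rabbit number, grey lines between libraries of the same number, and bars for the mean ± SD of 4 libraries. SOX9, SOX5, SOX6 and SOX11 lie higher in all 4 IPFSC libraries than in any ScASC library, while RUNX1 and RUNX2 overlap.

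The trio of SOX9, SOX5 and SOX6 also differed in make-up. Its summed level was 21.8 ± 5.05 RPKM in IPFSCs and 11.3 ± 2.71 RPKM in ScASCs (SD, n = 4 each). SOX5 made up 8.29%, 7.55%, 19.1% and 18.2% of this sum in IPFSC replicates 1 to 4, against 0.894%, 2.64%, 5.07% and 5.83% in ScASC replicates 1 to 4, with no overlap between the cell types. SOX6 made up 1.97% to 3.54% in IPFSCs and 0.117% to 1.40% in ScASCs. SOX9 was the bulk of the trio in every library, with 78.2% to 88.9% of the sum in IPFSCs and 92.8% to 99.0% in ScASCs. These shares follow from the levels above and carry no test of their own, and comparing genes rests on the lengths of the gene models that the RPKM were computed with.

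SOX11 (ENSOCUG00000027610) had the largest relative difference of the 6 genes and the smallest adjusted p of the 5 in the main test. The IPFSC replicates 1 to 4 were at 1.84, 2.17, 4.20 and 1.42 RPKM, against 0.0737, 0.0447, 0.296 and 0.0810 RPKM in ScASC replicates 1 to 4. Every IPFSC library was well above every ScASC library, and the rabbit of number 3 had the highest value in both cell types. The means were 2.41 ± 1.23 RPKM in IPFSCs and 0.124 ± 0.116 RPKM in ScASCs (SD, n = 4 each). In limma the log2 fold change was 1.54 (standard error 0.23, 95% confidence interval 1.01 to 2.08, adjusted p = 0.00770). The reads behind these values were 46, 52, 108 and 35 in IPFSC replicates 1 to 4 and 2, 1, 8 and 2 in ScASC replicates 1 to 4. Scaled to the reads of each group, their sums of 241 and 13 give a ratio of 18.4 (95% exact interval 10.5 to 35.0, which covers counting error only). The call of SOX11 held without any 1 replicate, with an adjusted p of 0.00743 to 0.0292 in limma, and in all of its 19 alternatives.

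RUNX1 (ENSOCUG00000013731) was the most abundant of the 6 genes in every library and did not part the cell types. Its level was 40.4, 39.4, 50.3 and 37.4 RPKM in IPFSC replicates 1 to 4, against 47.0, 54.4, 35.7 and 40.2 RPKM in ScASC replicates 1 to 4. The groups overlapped over most of their range, and the rabbit of number 3 had the highest IPFSC value and the lowest ScASC value. The means were 41.9 ± 5.77 RPKM in IPFSCs and 44.3 ± 8.17 RPKM in ScASCs (SD, n = 4 each). The log2 fold change was −0.07 (standard error 0.15, adjusted p = 0.908 in limma), with a 95% confidence interval of −0.40 to 0.26 for the difference. It was 0.03 without ScASC replicate 2, so its sign was not fixed. PTPRC, the CD45 gene of white blood cells, was listed at 0 in all 8 libraries. CD68, another marker of these cells, was at 16.6 ± 6.24 RPKM in IPFSCs and 16.4 ± 4.93 RPKM in ScASCs (SD, n = 4 each). Which cells the RUNX1 reads came from was not tested.

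RUNX2 (ENSOCUG00000011739) was lower in IPFSCs in all 4 pairs of libraries, by 0.03 to 0.66 on the log2 scale, and did not pass the test. IPFSC replicates 1 to 4 had 15.3, 20.4, 12.0 and 14.5 RPKM, against 18.2, 20.9, 19.5 and 19.9 RPKM in ScASC replicates 1 to 4. Of the IPFSC libraries, replicate 2 reached the ScASC range and the other 3 lay under it. The means were 15.5 ± 3.53 RPKM in IPFSCs and 19.6 ± 1.14 RPKM in ScASCs (SD, n = 4 each). In limma the log2 fold change was −0.34 (standard error 0.14, 95% confidence interval −0.67 to −0.01, adjusted p = 0.281). Without IPFSC replicate 2 the log2 fold change was −0.47 (adjusted p = 0.0612 in limma), and without IPFSC replicate 3 it was −0.23 (adjusted p = 0.544). The confidence intervals of RUNX1 and RUNX2, which are not adjusted for the number of genes, exclude a 2-fold change in either direction.

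**Figure D2:**
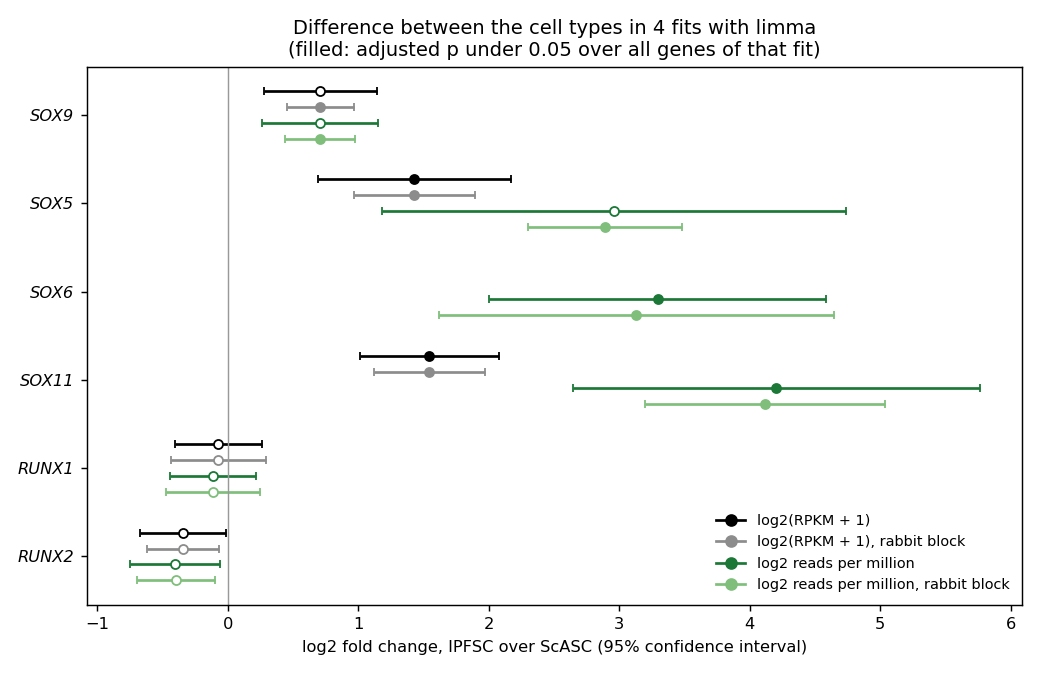
Log2 fold changes (IPFSC over ScASC) with 95% confidence intervals for the 6 genes in 4 fits with limma, on log2(RPKM + 1) and on log2 reads scaled to library size, each without and with the rabbit as a block. Filled points passed an adjusted p under 0.05 over all genes of that fit, which SOX11 did in each fit and RUNX1 and RUNX2 in none, and SOX6 was not in the fits on log2(RPKM + 1).

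By mean level the order in IPFSCs was RUNX1, SOX9, RUNX2, SOX5, SOX11 and SOX6, and in ScASCs it was RUNX1, RUNX2, SOX9, SOX5, SOX11 and SOX6. SOX9 and RUNX2 overlapped in IPFSCs, with 15.5 to 22.7 and 12.0 to 20.4 RPKM, and so did SOX5 and SOX11. In ScASCs SOX9 lay below RUNX2 without overlap, with 7.65 to 13.9 against 18.2 to 20.9 RPKM, while the ranges of SOX5, SOX11 and SOX6 overlapped. The ratio of SOX9 to RUNX2 within a library was 1.23, 0.761, 1.90 and 1.07 in IPFSC replicates 1 to 4, against 0.767, 0.366, 0.620 and 0.483 in ScASC replicates 1 to 4. SOX9 exceeded RUNX2 in 3 of 4 IPFSC libraries and in 0 of 4 ScASC libraries, and the ratio was higher in the IPFSCs of every rabbit, although IPFSC replicate 2 fell just under ScASC replicate 1. The ratio of RUNX1 to RUNX2 spanned 1.93 to 4.21 in IPFSCs and 1.83 to 2.60 in ScASCs and overlapped. Both ratios are descriptions without a test.

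**Figure D3:**
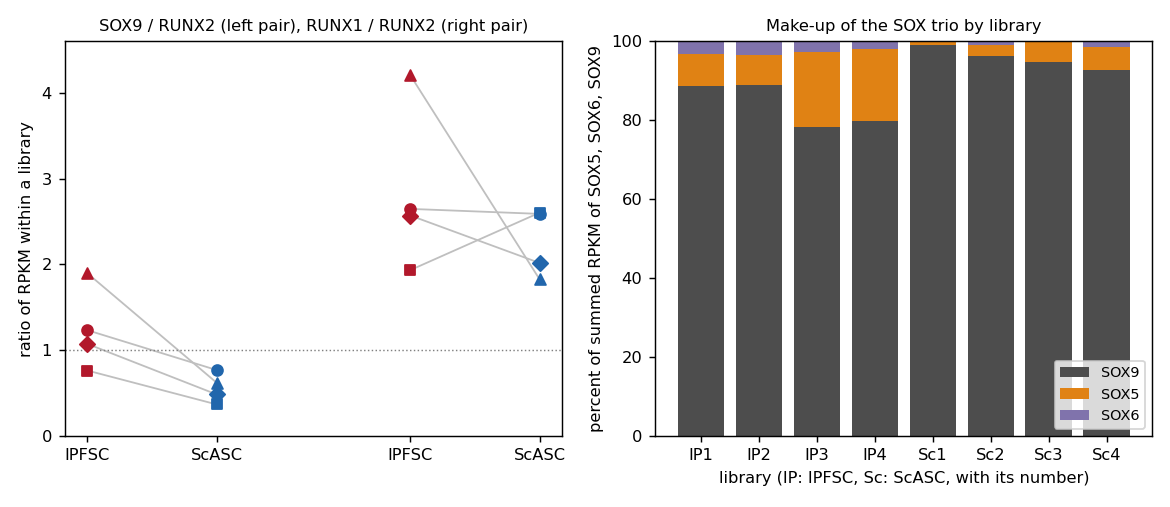
Left, the ratio of RPKM of SOX9 to RUNX2 and of RUNX1 to RUNX2 in each library, with IPFSCs left of ScASCs, symbols and lines by rabbit number (circle 1, square 2, triangle 3, diamond 4) and a dotted line at a ratio of 1. Right, the share of SOX9, SOX5 and SOX6 in their summed RPKM per library, in which SOX5 takes 7.55% to 19.1% in IPFSCs and 0.894% to 5.83% in ScASCs.

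Of the 5 genes in the main test, SOX5 and SOX11 rose in IPFSCs, 0 fell and 3 did not pass in limma. Over all 11294 genes tested, 2.67% rose and 2.31% fell, 4.98% in all. SOX5, SOX9 and SOX11 were higher in every IPFSC library than in any ScASC library, as were 6.07% of all tested genes, and none of the 5 was lower without overlap, against 5.73% of all tested genes. At an unadjusted p under 0.05 in limma, 1 of the 5 genes was lower, RUNX2, for which a two-sided exact permutation test on log2(RPKM + 1) gave p = 0.114. With the rabbit as a block, 3 of the 5 rose (SOX5, SOX9 and SOX11), against 4.31% of all genes. SOX5 and SOX11 passed the filter of the main test through their IPFSC libraries alone, as SOX6 and SOX11 did that of the voom fit, so nothing is read from their number against these shares. On the recovered reads limma's voom fit called SOX6 and SOX11 higher (2.26% of its 12102 genes were) and left SOX5 at an adjusted p of 0.0723. The same fit with the rabbit as a block called SOX5, SOX6, SOX9 and SOX11 higher (adjusted p = 0.00154, 0.0291, 0.0131 and 0.00219), as it did 4.44% of these genes. Log2 fold changes of SOX5 and SOX11 in the voom fit, 2.96 and 4.20, were larger than on log2(RPKM + 1), and that of SOX9 was 0.71 on either scale. Members called lower numbered 0 in each of these fits, against 3.74% of all genes with the rabbit as a block, 2.47% in the voom fit and 4.81% in the voom fit with the block.

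In a list of cartilage matrix genes chosen as targets of SOX9, SOX5 and SOX6, 5 of 10 tested were higher in IPFSCs. Control of these genes by SOX proteins was not tested. COL11A1, a chain of the thin type XI fibrils of cartilage, ACAN, the core protein of aggrecan, the matrilin gene MATN2, the collagen-binding proteoglycan gene FMOD and CSPG4, which encodes the proteoglycan NG2, rose. Of 26 symbols in this list, 19 were found and 10 tested, of which 5 rose, 0 fell and 5 did not pass in limma, with a median log2 fold change of 1.69. Over all tested genes 2.67% rose and 2.31% fell, and the median was −0.0035. MATN2 passed the filter through its IPFSC libraries alone, so nothing is read from this list's count or median against these values. ACAN was at 33.3, 19.6, 11.7 and 5.69 RPKM in IPFSC replicates 1 to 4, against 3.30, 1.77, 3.32 and 1.65 RPKM in ScASC replicates 1 to 4, which is 2.19 on the log2 scale (adjusted p = 0.0291 in limma). No ScASC library reached the lowest IPFSC library. ACAN was highest in IPFSC replicate 1 and SOX9 in IPFSC replicate 3, and a relation between these genes was not tested. MATN2 was at 8.77 ± 2.75 RPKM in IPFSCs and 0.286 ± 0.184 RPKM in ScASCs (SD, n = 4 each), with a log2 change of 2.89 (adjusted p = 0.000322 in limma). The log2 fold changes of COL11A1, CSPG4 and FMOD were 4.26 (adjusted p = 0.0276), 1.76 (adjusted p = 0.00742) and 1.61 (adjusted p = 0.0297 in limma). The calls of COL11A1 and ACAN were lost without any 1 library other than IPFSC replicate 4 or ScASC replicate 1 (adjusted p of 0.0674 to 0.0913 and 0.0505 to 0.0895), and that of FMOD without any but IPFSC replicate 1 or 2 (0.0551 to 0.0811).

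COL2A1, the type II collagen gene and the best known target of SOX9, was lower in every IPFSC library, a difference that passed only with the rabbit as a block. It was at 12.4, 8.47, 12.4 and 11.7 RPKM in IPFSC replicates 1 to 4, against 16.5, 13.9, 17.4 and 17.4 RPKM in ScASC replicates 1 to 4. All 4 IPFSC libraries lay below the lowest ScASC library. The log2 fold change was −0.51 (adjusted p = 0.0749 in limma), and with the rabbit as a block the adjusted p was 0.0154. In the 8 fits without 1 library the adjusted p of COL2A1 was 0.0882 to 0.175 in limma. By qPCR before induction, the paper reports both COL2A1 and ACAN as significantly higher in IPFSCs, which for COL2A1 is the other direction. COL9A1 and UCMA, further genes of differentiated cartilage, were listed at 0 in all 8 libraries.

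Among cofactors and upstream regulators of SOX9, LEF1 and SMAD3 fell in IPFSCs. Of 27 symbols, 19 were found and 16 tested, of which 0 rose, 2 fell and 14 did not pass in limma (median log2 fold change 0.03), where 2.67% of all tested genes rose and 2.31% fell. LEF1, which pairs with β-catenin in WNT signalling, was at 2.73 ± 1.24 RPKM in IPFSCs and 13.8 ± 7.86 RPKM in ScASCs (SD, n = 4 each), a log2 change of −1.88 (adjusted p = 0.0392 in limma). SMAD3, a TGFβ effector that binds SOX9, had 13.7 ± 2.25 RPKM in IPFSCs and 20.4 ± 1.85 RPKM in ScASCs (SD, n = 4 each), a log2 change of −0.55 (adjusted p = 0.0410 in limma). Both calls were lost in 7 of the 8 fits without 1 library, that of LEF1 in all but the fit without ScASC replicate 3 (adjusted p of 0.0524 to 0.109) and that of SMAD3 in all but the fit without IPFSC replicate 2 (0.0523 to 0.124). The coactivator genes EP300 and CREBBP had log2 fold changes of −0.0023 and 0.09 (adjusted p = 0.997 and 0.627). SOX13, the third gene of the SOX5 and SOX6 group, had 2.59 ± 0.355 RPKM in IPFSCs and 2.42 ± 0.362 RPKM in ScASCs (SD, n = 4 each; log2 fold change 0.07, adjusted p = 0.897 in limma). Of the 13 other SOX symbols, 6 were found, and SOX1, SOX3, SOX10 and SOX14 were listed at 0 in all 8 libraries.

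In the list of genes linked to SOXC factors, 5 of 9 genes found were tested, of which 0 rose, 1 fell and 4 did not pass in limma (median log2 fold change −0.12), against 2.67% higher and 2.31% lower among all tested genes. ROR2, a WNT5A receptor of the skeleton, was at 26.7 ± 0.722 RPKM in IPFSCs and 39.0 ± 5.58 RPKM in ScASCs (SD, n = 4 each), a log2 change of −0.52 (adjusted p = 0.0319 in limma). Its call was lost in every fit without 1 library other than ScASC replicate 1 (adjusted p of 0.0550 to 0.0989). GDF5, the joint-forming growth factor, was under 0.1 RPKM in all 8 libraries and was listed at 0 in 2 IPFSC and 3 ScASC libraries.

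Of the partners and co-regulators of RUNX proteins, TRPS1 and DLX3 rose and TWIST2, TLE3 and WWP1 fell. TRPS1, a zinc finger repressor that counters RUNX2 in the mouse growth plate, was at 37.0, 35.5, 44.0 and 39.4 RPKM in IPFSC replicates 1 to 4, against 2.86, 2.02, 1.99 and 3.23 RPKM in ScASC replicates 1 to 4. Each group was tight and far from the other, with a log2 change of 3.52 (adjusted p = 2.22e-05 in limma). Of 41 symbols, 28 were found and 23 tested, of which 2 rose, 3 fell and 18 did not pass in limma (median log2 fold change −0.02), against 2.67% higher and 2.31% lower among all tested genes. DLX3, a homeobox gene of osteoblasts, rose by 1.70 on the log2 scale (adjusted p = 0.0462 in limma), a call lost without any 1 library other than IPFSC replicate 2 or ScASC replicate 3 (adjusted p of 0.0859 to 0.135). TWIST2, whose protein blocks the DNA-binding domain of RUNX2, fell to 6.91 ± 2.06 RPKM in IPFSCs, against 17.3 ± 3.88 RPKM in ScASCs (SD, n = 4 each), a log2 change of −1.22 (adjusted p = 0.0116 in limma). TLE3, a Groucho corepressor, and WWP1, a ubiquitin ligase that acts on RUNX2, fell by 0.75 and 0.64 on the log2 scale (adjusted p = 0.00770 each in limma). The calls of TRPS1, TWIST2, TLE3 and WWP1 held without any 1 library.

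Of the target genes of RUNX2 in bone and growth plate, SPP1 (osteopontin), BGLAP (osteocalcin) and the FGF receptor gene FGFR2 rose. Of 24 symbols 23 were found and 10 tested, of which 3 rose, 0 fell and 7 did not pass in limma (median log2 fold change 0.16), against 2.67% higher and 2.31% lower among all tested genes. Among the 23 found, 12 stayed under 1 RPKM in every library, and DMP1, TNFSF11 and SOST were at 0. SPP1 was at 61.5, 32.8, 33.7 and 79.4 RPKM in IPFSC replicates 1 to 4, against 8.21, 0.180, 2.47 and 1.47 RPKM in ScASC replicates 1 to 4, a log2 change of 3.99 (adjusted p = 0.00670 in limma). The groups did not overlap, and the call held without any 1 library. BGLAP was at 18.2 ± 2.17 RPKM in IPFSCs and 12.0 ± 1.44 RPKM in ScASCs (SD, n = 4 each), a log2 change of 0.56 (adjusted p = 0.0290 in limma). The call of BGLAP was lost without IPFSC replicate 1 or 2 or ScASC replicate 2 or 4 (adjusted p of 0.0675 to 0.0917) and in the voom fit (adjusted p = 0.110). By qPCR before induction, the paper reports higher SPP1 in IPFSCs but no difference in BGLAP. FGFR2 rose by 1.12 on the log2 scale (adjusted p = 0.0158 in limma), which was lost without IPFSC replicate 1 or 3 or ScASC replicate 2 (adjusted p of 0.0523 to 0.0541). SP7 (osterix), which acts after RUNX2 in osteoblasts, held 7, 3, 15 and 2 reads in IPFSC replicates 1 to 4 and 2, 0, 2 and 0 reads in ScASC replicates 1 to 4, too few for the test. The main collagen genes of bone, COL1A1 and COL1A2, had log2 fold changes of −0.55 and −0.56 (adjusted p = 0.0873 and 0.140), and with the rabbit as a block both fell (adjusted p = 0.0328 and 0.0449 in limma).

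**Figure D4:**
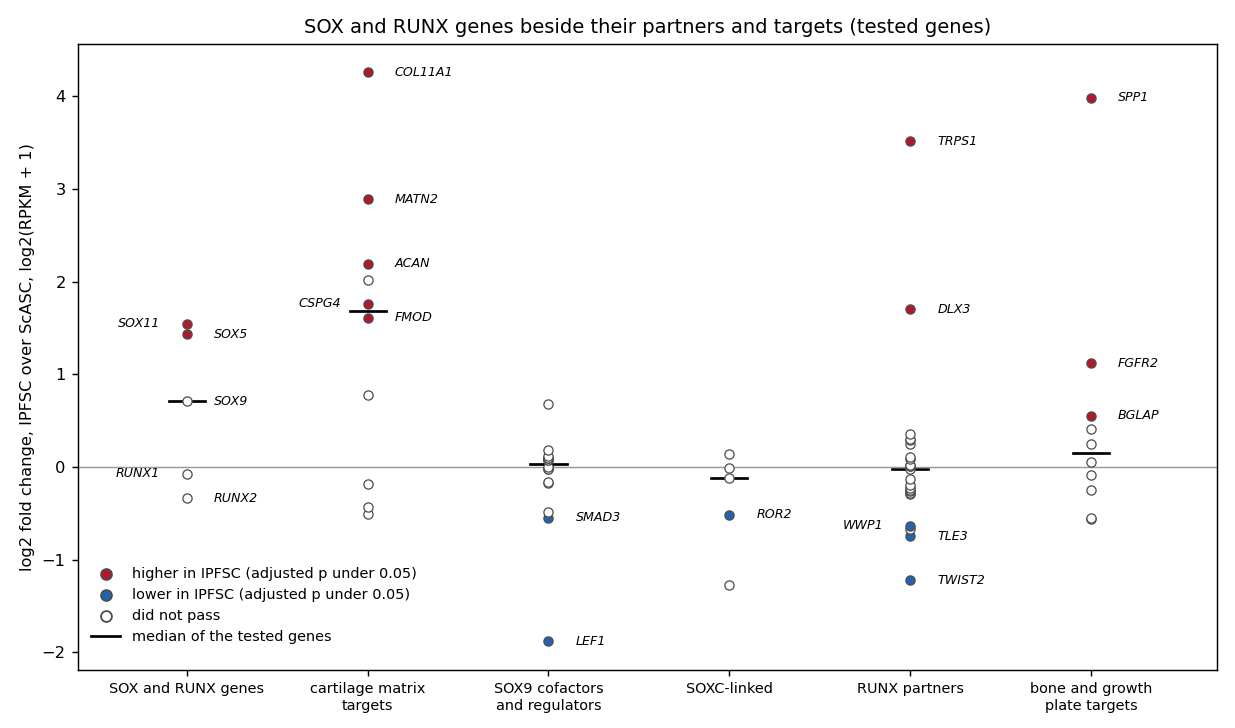
Log2 fold changes (IPFSC over ScASC) of the tested genes among the SOX and RUNX genes and 5 lists of partners and targets, with names for the SOX and RUNX genes and for genes that passed and a bar for the median of each list. Cartilage matrix targets, of which MATN2 passed the filter through its IPFSC libraries alone, have a median of 1.69. The medians of the 4 lists of cofactors, partners and bone targets lie between −0.12 and 0.16.

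Markers of other cell types were read in the same libraries, since SOX and RUNX genes mark several of them. Among all tested genes 2.67% rose and 2.31% fell, and with the rabbit as a block 4.31% rose and 3.74% fell. Of 8 endothelial markers found, 0 were tested, and their summed level was 0.0495 to 0.844 RPKM in IPFSCs and 0.392 to 2.63 RPKM in ScASCs. Among 12 leukocyte markers the summed level was 13.8 to 28.7 RPKM in IPFSCs and 11.8 to 22.9 RPKM in ScASCs, most of it CD68, and PTPRC, TYROBP, C1QA and C1QB were at 0. For 8 Schwann cell markers the summed level was 13.5 to 15.97 RPKM in IPFSCs and 22.4 to 28.0 RPKM in ScASCs, most of it the adhesion gene NCAM1. NCAM1 fell by 0.96 on the log2 scale (adjusted p = 0.00449 in limma). S100B, the other of the 2 Schwann cell markers tested, was at 2.29 ± 1.09 RPKM in IPFSCs and 0.768 ± 0.206 RPKM in ScASCs (SD, n = 4 each). It went the other way without passing (log2 fold change 0.83, adjusted p = 0.138 in limma). The defining gene SOX10 was at 0 in all 8 libraries. Of 9 chondrocyte markers, 5 were tested, of which ACAN rose, and their summed level was 30.4 to 65.0 RPKM in IPFSCs and 34.0 to 44.4 RPKM in ScASCs, while COL9A1 and UCMA were at 0. Muscle markers summed to 2.57 to 4.16 RPKM in IPFSCs and 1.43 to 1.97 RPKM in ScASCs, and adipocyte markers to 39.2 to 94.5 RPKM in IPFSCs and 19.99 to 53.6 RPKM in ScASCs. The most abundant adipocyte marker was LPL, at 62.0 ± 27.7 RPKM in IPFSCs and 24.4 ± 18.6 RPKM in ScASCs (SD, n = 4 each). Its log2 fold change was 1.46 (adjusted p = 0.176 in limma, 0.0225 with the rabbit as a block), and the groups overlapped. By qPCR before induction, the paper reports LPL as higher in ScASCs, which is the other direction. Its RNA-seq account lists LPL among genes preferentially expressed in IPFSCs. Of the 6 adipocyte markers found, 3 stayed under 1 RPKM in every library. For 6 markers of the synovial lining, which borders the fat pad, the summed level was 239 to 342 RPKM in IPFSCs and 217 to 308 RPKM in ScASCs. Most of it was HTRA1 (log2 fold change 0.02, adjusted p = 0.987 in limma). Of the 5 tested, ITGB8 and TSPAN15 rose (log2 fold changes 1.35 and 1.75, adjusted p = 0.000710 and 0.0416 in limma) and 3 did not pass. The part of synovial lining, fat or cartilage cells in the SOX levels was not tested. All 11 stromal markers found passed the filter on low RPKM, of which CD44 rose and COL3A1 fell in limma (with the rabbit as a block 2 rose and 5 fell), with summed levels of 9601 to 13832 RPKM in IPFSCs and 14284 to 20341 RPKM in ScASCs.

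To place the members among other genes, the 3 genes with the nearest profile were taken for each tested member, by the root mean square distance between standardised log2(RPKM + 1) over the 8 libraries and among 8375 other genes with a symbol. For SOX5 these were AQP3, a water and glycerol channel (distance 0.176), the ephrin ligand gene EFNB2 (0.221) and ZBTB7C, a zinc finger gene (0.224). PLEKHG5, a gene with a pleckstrin homology domain (0.172), EDIL3, an integrin-binding matrix protein gene (0.184), and COCH, a matrix protein gene (0.194), were nearest to SOX11. SOX9 was followed by TMED10 and SEC11A, both of the secretory pathway (0.224 and 0.288), and SNCAIP (0.262). RUNX2 was nearest to MEPCE (0.217), ARL6IP1 (0.308) and UXT (0.316), and RUNX1 had no gene closer than WTAP (0.495), followed by MAPKAPK2 (0.498). Among the members themselves, SOX5 and SOX11 were the nearest pair (0.454) and SOX5 and RUNX2 the farthest (1.94). These distances describe 8 libraries of 2 cell types and say nothing of shared control.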

How the data were processed

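RNA-seq of 4 IPFSC and 4 ScASC libraries was processed by the authors with Subread (alignment to OryCun2.0, no trimming) and featureCounts (Ensembl annotation 98), and the counts were scaled to RPKM. The deposited values are log2(RPKM + 1) plus 1e-05, as read from the values. The authors' edgeR fold changes, mean log2 CPM, p-values and adjusted p-values in that table were not used. Of 20595 entries, 9 repeats were dropped. Since RPKM were given, limma 3.58.1 (R 4.3.3) with a trend replaced a count model. Read numbers inferred from RPKM steps can be too small by a common factor, and strand use in counting is not given in the sources used here. Members and lists were chosen with earlier results of these data known. Named are every member, in each list up to 6 called genes with the smallest p, 7 fixed genes (COL2A1, ACAN, GDF5, SP7, BGLAP, SPP1 and CBFB, the last not analysed here) and the 3 nearest profiles per tested member, of which some are not reported here. SOX13, EP300, CREBBP, COL1A1, COL1A2, ITGB8, TSPAN15, NCAM1, S100B, CD44, COL3A1 and the marker genes at 0 or most abundant in a list were named after their values were seen. Deviations from group means of same-numbered libraries correlated at 0.534, 0.550, 0.253 and 0.660 across genes, although ScASC 3 correlated more with IPFSC 4 (0.329) and IPFSC 2 reached 0.335 with ScASC 1, and the paper calls the cells donor-matched, so numbers were taken as rabbits. Alternatives were other pseudocounts (0.1 and 0.5), filters, scalings and trends, the block, the study's fold criterion and each library left out, and, added after the data were seen, limma's voom. The main test was checked on simulated data, with changes planted only in genes of a higher level than SOX5 and SOX11. The fits with the block or with voom were not checked in this way. Replicates are rabbits, as far as the numbers mark them.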

Additional observations from a re-analysis of the deposited data

Results flagged for a closer look

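Among 80 groups of 4 libraries examined (40 named genes in each cell type), 7 held a library far from the other 3, and chance flags about 1 in 20 groups. SOX11 in ScASC replicate 3 was at 0.296 RPKM (8 reads), against 0.0447 to 0.0810 RPKM (1 to 2 reads) in the other ScASC libraries. In IPFSC replicate 3, EDIL3 was at 16.4 RPKM and PLEKHG5 at 3.22 RPKM, against 3.87 to 5.49 and 1.82 to 2.02 RPKM in the other IPFSC libraries. ARL6IP1 was at 122 RPKM in IPFSC replicate 2, against 94.4 to 98.7 RPKM in the others. TLE3 was at 17.3 RPKM in ScASC replicate 1, against 22.3 to 22.7 RPKM, TWIST2 at 23.1 RPKM in ScASC replicate 2, against 14.5 to 15.9 RPKM, and GDF5 at 0.0362 RPKM in ScASC replicate 4, against 0 in the other ScASC libraries.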

How the results depend on the processing

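The rabbit as a replicate block, which follows the pairing of the libraries, gave 487 genes higher and 422 lower, against 301 and 261 without it, and called 3 members higher (SOX5, SOX9 and SOX11) in place of 2. Limma's voom fit on recovered reads with the block, added after the data were seen, gave 537 and 582 genes and 4 members. In limma on log2(RPKM + 1), the block changed the calls of SOX9, COL2A1, COL1A1, COL1A2 and LPL and of no other gene named here. With a mean RPKM above 1 required in both cell types, 192 genes were higher and 168 lower, and 0 members were called, since SOX5 and SOX11 were not tested. The study's fold criterion of 2 left 182 higher, 141 lower and 2 of the 6 list genes called lower. Without 1 library at a time, 166 to 297 genes were higher and 149 to 277 lower, and 1 to 2 members were higher. List genes called in these fits numbered 4 to 9 higher and 3 to 5 lower, against 10 and 6 in the main fit. These counts can include list genes that the main fit did not call. Other settings ended the call of DLX3 (6 settings), LEF1 and SMAD3 (3 each), SOX5, ROR2, BGLAP and SNCAIP (2 each) and FMOD and EFNB2 (1 each), with adjusted p of 0.0502 to 0.118. With 1 library left out at a time, the log2 fold change of RUNX1 lay between −0.17 and 0.031, that of WTAP between −0.093 and 0.00037, and that of MAPKAPK2 between −0.11 and 0.025, and their signs reversed without ScASC replicate 2 (MAPKAPK2 also at 0.0092 without IPFSC replicate 4 and 0.016 without ScASC replicate 1). The cause was not tested. Members lower numbered 0 under every alternative run. SOX5, SOX6 and SOX11 rest on 1 to 41 reads per ScASC library, which limits their fold changes.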
